A study of Mus musculus with 12 samples.

Results

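Of the 55681 gene-directed probes on the array, 16194 carried no RefSeq accession and were named by a stretch of the mouse genome, such as chr2:174088550-174109425 with the strand label F or R. They are the probes for long intergenic noncoding RNA, and 7302 of them (45.1%) are described here, spread over 2553 of the 3543 intervals on the array. They were selected on their own signal: a probe was kept when at least 1 of the 4 groups had it marked well above background by the scanner software on each of its 3 arrays. The same rule kept 19946 of 26640 probes for RefSeq mRNAs (74.9%) and 672 of 1426 probes for RefSeq noncoding RNAs (47.1%), and 33915 probes of all kinds. The choice therefore rests on measured signal, and the detection counts below are a description. Coordinates are those of the array design and refer to the mm9 assembly named in the file headers. The genes that overlap or neighbour the intervals, and the base sequences of the probes, were not used here. The files do not define the strand labels, which are given as written.

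Total RNA of mouse embryonic stem cell lines was hybridised to 12 single-colour arrays, 3 for each of 4 groups. Wild-type and Nat1-null cells were each grown in medium with LIF alone or with 2i added to LIF. All cells were grown on gelatin-coated plates. The labels do not say how many lines or clones were used, nor whether replicates came from separate cultures. Each slide carried few groups: slide 1 held the wild-type LIF arrays, slide 2 the wild-type 2i+LIF arrays and slide 3 all 6 Nat1-null arrays. The effect of 2i in wild type, both effects of Nat1 loss and their interaction thus coincide with the slide and cannot be told apart from it. Only the effect of 2i in Nat1-null cells was measured within 1 slide.

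Long intergenic noncoding RNAs are transcribed from stretches between protein-coding genes, are often spliced and polyadenylated like mRNAs, and are usually less abundant and more restricted to particular cell types. In embryonic stem cells some of them take part in imprinting, X-chromosome inactivation and the regulation of neighbouring genes. LIF sustains self-renewal through STAT3, and 2i adds inhibitors of MEK and GSK3, which hold the cells in a more uniform naive state. Nat1, now called Eif4g2, encodes a relative of the translation initiation factor eIF4G and acts in translation, so a difference in the level of a noncoding RNA after its loss is not a direct readout of its known function.

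The labels were borne out by Eif4g2, whose level was 4.44 to 4.55 on the wild-type LIF arrays, 4.10 to 4.29 on the wild-type 2i+LIF arrays, and 1.22 to 1.41 on the 6 Nat1-null arrays. Levels are log2 values on which the 75th percentile of each array is 0. All 8 embryonic stem cell markers were detected on all arrays of every group, but their levels moved, and not all the same way. With 2i, the wild-type mean of Nanog rose from 2.32 to 4.31, and Pou5f1, Sox2, Dppa5a and Tdgf1 rose too. Lin28a fell from 4.73 to 2.39 and Utf1 from 4.86 to 3.53, while Zfp42 was nearly level, at 6.32 and 6.38. When Nat1 was lost in LIF, Tdgf1 went from 2.71 to 5.38, and Lin28a alone fell, from 4.73 to 3.05. Of 8 fibroblast and feeder cell markers, 7, 5, 5 and 4 were detected on all 3 arrays of wild-type LIF, wild-type 2i+LIF, Nat1-null LIF and Nat1-null 2i+LIF, in that order. Their summed level was 7.04 to 7.23 in wild-type LIF and between -0.68 and 1.18 on the other 9 arrays; Lum, a fibroblast gene, was not marked well above background in any group. The means of Col1a1, Col1a2, Col3a1, Acta2, Thy1 and Dcn were highest in wild-type LIF, while Pdgfrb stood at -2.20 there and at -0.15 and 0.24 in wild-type and Nat1-null 2i+LIF. The summed level of 3 neural ectoderm markers was 3.86 to 3.92 in wild-type LIF against 0.61 to 1.73 elsewhere. Nes, at 3.61 in wild-type LIF, made up most of it, and Sox1 was higher in Nat1-null LIF, at 1.33 against 1.12. The sum of 4 primitive endoderm markers was lower in wild-type LIF, at 0.05 to 0.54, than in Nat1-null LIF, at 1.11 to 2.07, where Gata6 averaged 1.20 against -1.56. The marker levels move with every comparison against wild-type LIF, and their part in those results was not tested. In bulk RNA, fewer cells of a type and less RNA per cell cannot be told apart.

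Probes for intergenic RNA gave weaker signals than mRNA probes in every group. The median level of the members was -3.02 in LIF and -2.90 in 2i+LIF for wild type, and -2.97 and -2.98 for Nat1-null cells. The mRNA probes that passed the same rule had medians of 0.21, 0.17, 0.16 and 0.15 in the same order. Averaged over all arrays, 988 members (13.5%) lay at or above 0, against 51.4% of the mRNA probes. Signal depends on the probe as well as on the RNA, so these are distributions of signal and not of transcript number.

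Many members were not detected in full in every group. On all 12 arrays 4365 members (59.8%) were well above background, against 80.8% of the mRNA probes that passed. A further 869 members (11.9%) were detected on all 3 arrays of both wild-type groups but not of either Nat1-null group, a pattern held by 5.18% of the mRNA probes. The members detected on all 3 arrays of 1 group alone numbered 767 for wild-type LIF, 265 for wild-type 2i+LIF, 118 for Nat1-null LIF and 13 for Nat1-null 2i+LIF. These were 10.5%, 3.63%, 1.62% and 0.178% of the members, in that order. The same patterns were held by 7.25%, 0.647%, 0.286% and 0.0902% of the mRNA probes that passed. Another 514 members (7.04%) were detected in full in all groups except Nat1-null 2i+LIF, against 3.05% of the mRNA probes.

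Detection followed the array as well as the group. The share of members detected was 97.2%, 97.1% and 92.9% on the wild-type LIF arrays and 94.8%, 92.5% and 86.6% on the wild-type 2i+LIF arrays. It was 93.6%, 91.3% and 72.8% on the Nat1-null LIF arrays and 65.0%, 76.4% and 79.8% on the Nat1-null 2i+LIF arrays. The 4 lowest shares belong to the 4 arrays in row 2 of slide 3. On those 4 arrays the mean negative-control signal lay between -16.4 and -10.2, outside the scanner software's range, while it was -9.89 to -6.45 on the other 8. The part of this difference in the counts of members lost in Nat1-null cells was not tested.

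Differences between groups were tested with limma across all 33915 probes that passed the rule, and are read here for the 4365 members well above background on all 12 arrays, called bright below. A call means an adjusted p (limma, Benjamini-Hochberg) below 0.05, and a 2-fold call also an absolute log2 difference of at least 1. Members that were dim in some group are described without a test. Where a named member is called largest, steepest, lowest or brightest below, the ranking leaves out the probes on 1 chromosome.

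On the scaled values, 2i in wild-type cells was accompanied by higher intergenic signal far more often than by lower signal. The direction of these counts depends on the scaling, as given below. Of the bright members 2013 (46.1%) were higher in 2i+LIF and 503 (11.5%) lower, where all bright probes of any class gave 41.3% higher and 22.3% lower. At 2-fold, 399 members were higher and 120 lower, that is 9.14% and 2.75%, against 7.61% and 5.61% of all bright probes. The mRNA probes were nearly balanced at 2-fold, with 1157 of 16108 higher and 1127 lower. The median difference was 0.29 for the members and 0.09 for the mRNA probes. The members' median stood above the mRNA median by 0.18 to 0.22 on each of the 3 wild-type 2i+LIF arrays.

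The loss of Nat1 in LIF showed a like imbalance. Of the bright members 1890 (43.3%) were higher in Nat1-null cells and 661 (15.1%) lower, beside 40.4% and 26.8% of all bright probes. At 2-fold 603 members (13.8%) were higher and 179 (4.10%) lower, where all bright probes gave 11.4% and 8.05%. The medians were 0.25 for the members and 0.08 for the mRNA probes, with a gap of 0.13 to 0.18 on each Nat1-null LIF array. This comparison and that of 2i in wild type share the wild-type LIF arrays, so their values are set side by side and not taken as separate support.

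Intergenic and mRNA probes differ in level, so both comparisons were also read within bands of mean level, an alternative chosen after the data were seen. The bands hold all members and mRNA probes that passed the rule, not only the bright ones. They thus include probes kept only through a group where they are high, such as 767 members and 1446 mRNA probes for wild-type LIF alone. The band medians are therefore a description, above all in the low bands. In 7 bands from -5 to 2 the members' median exceeded that of the mRNA probes in every band, by 0.22 to 0.47 for 2i in wild type and by 0.20 to 0.63 for Nat1 loss in LIF. In the lowest band the members' median was 0.02 for 2i in wild type and -0.04 for Nat1 loss in LIF, while the mRNA medians were -0.44 and -0.67. For 2i in Nat1-null and Nat1 loss in 2i+LIF the classes lay closer, with gaps of -0.07 to 0.06 and -0.02 to 0.06 over the bands.

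The direction of the counts for 2i in wild type depends on the scaling between arrays. With the deposited processed signals left unscaled, the 2-fold counts for 2i in wild type became 112 higher and 408 lower, and the share of all called members that were higher went from 80.0% to 19.9%. For Nat1 loss in LIF the unscaled counts were 446 higher and 213 lower, and that share went from 74.1% to 61.0%. Unscaled medians for 2i in wild type were -0.28 for the members and -0.48 for the mRNA probes. Scaling shifts all probes of an array alike, so the gap between these medians could not change with it.

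Within the Nat1-null cells, 2i moved few bright members. Of these, 551 (12.6%) were higher and 654 (15.0%) lower, against 21.3% and 16.5% of all bright probes. At 2-fold, 53 were higher and 120 lower (1.21% and 2.75%), where all bright probes gave 2.69% and 2.89%. The medians were 0.03 for the members and 0.03 for the mRNA probes, and the gap by array ran from -0.05 to 0.02. Without scaling 36 were higher and 203 lower at 2-fold, and the share of called members that were higher went from 45.7% to 13.2%. All Nat1-null 2i+LIF arrays but only 1 Nat1-null LIF array lie in row 2 of the slide, and the part of the row was not tested.

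In 2i+LIF, the loss of Nat1 likewise left most bright members without a call. Of them 621 (14.2%) were higher and 838 (19.2%) lower, against 22.5% and 21.1% of all bright probes. At 2-fold, 81 were higher and 132 lower (1.86% and 3.02%), beside 3.01% and 3.88%. The median of the members was 0.00 and that of the mRNA probes 0.04. Without scaling the counts were 167 higher and 67 lower, and the share of called members that were higher went from 42.6% to 82.1%.

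The interaction tests whether the difference made by 2i in Nat1-null cells equals that in wild type. It was below 0 for 1483 bright members (34.0%) and above 0 for 362 (8.29%), beside 30.9% and 19.2% of all bright probes. At 2-fold 494 members (11.3%) lay below 0 and 111 (2.54%) above it, where all bright probes gave 9.03% and 6.36%. The median was -0.27 for the members and -0.06 for the mRNA probes, so the excess of higher intergenic signal with 2i in wild type was smaller in Nat1-null cells. Without scaling 275 lay above 0 and 239 below it, and the share of called members above 0 went from 19.6% to 60.3%. The gap between the members' and the mRNA median was 0.20 for 2i in wild type, 0.17 for Nat1 loss in LIF and -0.21 for the interaction. Scaling by array cannot alter this gap, so its sameness without scaling is no check.

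Because most intervals carry several probes, the design offers a check of each member against others of the same interval. Of the 3543 intervals, 1595 had 3 probes on 1 strand and 327 had 5 on each strand; intervals probed on 1 strand had a median length of 2176 bp and those probed on both 17901 bp. Members per interval ran from 1, in 918 intervals, to 18, and in 808 intervals all probes were members. Members were labelled F in 3482 cases and R in 3809, and 11 had no strand label. Of 988 intervals with a member that were probed on both strands, 659 had members on both. Member intervals overlapped an earlier one in 869 cases, so neighbouring names can stand for the same transcript.

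Probes on the same strand of an interval moved together, and probes on opposite strands did so much less. Over 4323 same-strand pairs of bright members in 909 intervals, the differences of the pair correlated at r = 0.76 for 2i in wild type, 0.73 for 2i in Nat1-null, 0.80 for Nat1 loss in LIF and 0.70 for Nat1 loss in 2i+LIF. Over 2496 opposite-strand pairs in 392 intervals, r was 0.13, 0.30, 0.23 and 0.20. These are descriptions across pairs that share arrays and intervals. Same-strand pairs in intervals under 2 kb had r of 0.84 to 0.91 and those in intervals of 10 kb or longer 0.65 to 0.75.

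There were 596 strands of intervals with at least 3 bright members. For 2i in wild type all members of the strand were called higher in 161 of them and all lower in 35, while 30 held calls in both directions. For Nat1 loss in LIF the counts were 168, 45 and 27. For 2i in Nat1-null they were 30, 57 and 5, and for Nat1 loss in 2i+LIF 45, 62 and 17. In each of the 4, strands with all members called 1 way outnumbered those with calls in both directions. Strands with no call numbered 90, 84, 272 and 235 of the 596 in the same order. The remaining strands had some members called in 1 direction and others not called.

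Among bright members, the steepest fall with 2i in wild type lay in chr3:87757295-87774970, strand F, a stretch of 17676 bp. Probe A_30_P01018420 read 3.76, 3.68 and 3.89 in wild-type LIF and -1.10, -1.17 and -1.22 in wild-type 2i+LIF. On the Nat1-null arrays it read -1.16, -1.65 and -1.17 in LIF and -2.34, -1.91 and -1.93 in 2i+LIF. Wild-type LIF stood apart from all other arrays, being 30.6-fold above wild-type 2i+LIF (log2 difference -4.94, SE 0.152, limma adjusted p = 1.5e-08) and 34.4-fold above Nat1-null LIF (-5.10, SE 0.152, adjusted p = 5e-09). Of the 5 bright F probes of the interval, 4 fell at least 2-fold in both comparisons. Of these 4, A_30_P01020627 had the highest level in wild-type LIF, 5.88 ± 0.0506 (SD, n = 3), and stood at 1.42 ± 0.0707 in wild-type 2i+LIF. The remaining F probe, A_30_P01026280, was the brightest of the 5, with a mean level of 7.68 over all arrays, and did not fall. Its difference was 0.40 for 2i in wild type, called higher, and 0.17 for Nat1 loss in LIF, with no call. The summed levels of the fibroblast and neural ectoderm lists, though not of each marker, are highest on the same 3 arrays; their part in this fall was not tested.

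The opposite pattern was seen in chr2:174088550-174109425, strand R. A_30_P01032495 read -2.72, -2.85 and -2.86 in wild-type LIF and 0.54, 0.62 and 0.66 in wild-type 2i+LIF. Its Nat1-null values were 0.63, 0.39 and 0.73 with LIF and 0.54, 0.49 and 0.65 with 2i+LIF. The 3 groups other than wild-type LIF overlapped one another. The rise with 2i in wild type was 3.42 on the log2 scale (SE 0.0906, limma adjusted p = 7.9e-09), and with Nat1 loss in LIF it was 10.5-fold. In Nat1-null cells 2i gave a difference of -0.03 (SE 0.0906, adjusted p = 0.82). All 4 bright R probes of the interval behaved alike, with differences of 3.36 to 3.42 for 2i in wild type. The dim R members A_30_P01018090 and A_30_P01032628 did not follow, with differences of -0.08 and 0.46. They were well above background on 7 and 9 arrays, at mean levels of -4.96 and -4.09. The 3 bright F probes of the interval differed by -0.28 to 0.18 and none was called.

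In chr11:120041124-120052299, strand R, A_30_P01027042 rose with 2i in wild type from -1.78 ± 0.0756 to 1.65 ± 0.118 (SD, n = 3), 10.8-fold, and stood at 1.54 ± 0.439 and 2.24 ± 0.250 in Nat1-null LIF and 2i+LIF. The arrays of the other 3 groups ranged from 1.28 to 2.52. A second bright R probe rose by 2.11, while the third had a difference of -0.07 and no call. A dim R probe of the same interval, A_30_P01031284, was not marked well above background in wild-type LIF and at least 8.24-fold higher in wild-type 2i+LIF.

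Nat1 loss in LIF gave its largest rise in chr17:21653676-21667959, strand F. A_30_P01029176 read -3.69, -3.48 and -3.70 in wild-type LIF and 0.26, -0.12 and 0.20 in Nat1-null LIF, a 13.3-fold rise (log2 3.74, SE 0.126, limma adjusted p = 1e-08). It read -1.29, -1.68 and -1.59 in wild-type 2i+LIF and -1.49, -1.43 and -1.52 in Nat1-null 2i+LIF. With 2i the genotypes thus overlapped, at a level between the extremes (0.04, SE 0.126, adjusted p = 0.82).

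The interval chr1:183783306-183834531 held 11 members. On strand R, A_30_P01022256 rose with Nat1 loss in LIF from -2.73, -2.50 and -2.51 to 1.22, 0.91 and 1.20, which is 12.9-fold (log2 3.69, SE 0.102, limma adjusted p = 3.5e-09). In 2i+LIF it went from -1.15, -1.31 and -1.14 in wild type to -0.05, -0.23 and -0.15 in Nat1-null cells, 2.08-fold. The groups did not overlap in either medium, and the difference was the smaller in 2i+LIF. A_30_P01033568 followed it, at 11.6-fold and 2.13-fold. A_30_P01017986 also rose 11.3-fold in LIF, but its Nat1-null 2i+LIF arrays read -0.60, -0.50 and 2.69, and the scanner software marked the last spot as an outlier. The 8 bright F probes of the interval differed by 0.74 to 1.44 in LIF, 6 of them called at 2-fold.

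Nat1 loss in both media raised chr14:77077374-77086910, strand F. A_30_P01026441 read 0.99, 1.00 and 1.10 in wild-type LIF and -0.35, -0.23 and -0.56 in wild-type 2i+LIF. Its Nat1-null values were 4.53, 3.94 and 4.69 in LIF and 4.42, 3.83 and 4.51 in 2i+LIF. The rise was 10.3-fold in LIF (log2 3.36, SE 0.215, limma adjusted p = 5.8e-07) and 24.8-fold in 2i+LIF (4.63, SE 0.215, adjusted p = 5.5e-07). The 2 media overlapped in Nat1-null cells and did not in wild type. A_30_P01032416 of the same interval rose 9.90-fold and 18.5-fold.

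Losses in both media were found in chr15:96984422-97000322, strand R. A_30_P01018633 read 0.50, 0.63 and 0.64 in wild-type LIF and 0.68, 0.73 and 0.57 in wild-type 2i+LIF, against -2.56, -2.16 and -2.42 in Nat1-null LIF and -2.56, -2.02 and -2.79 in Nat1-null 2i+LIF. The genotypes did not overlap, while the media did within each genotype. The fall was 7.85-fold in LIF (log2 -2.97, SE 0.175, limma adjusted p = 3.3e-07) and 8.68-fold in 2i+LIF (-3.12, SE 0.175, adjusted p = 1.5e-06). A_30_P01020124 fell 8.53-fold and 7.25-fold.

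In chr2:150091945-150119782, strand F, A_30_P01030667 stood at -2.06 ± 0.0497 (SD, n = 3) in wild-type LIF and rose to -0.19 ± 0.138 in wild-type 2i+LIF. The Nat1-null means were -3.36 ± 0.918 with LIF and -2.89 ± 0.616 with 2i+LIF. The fall with Nat1 loss was 2.48-fold in LIF and 6.50-fold in 2i+LIF. The interaction was -1.39 (SE 0.591, limma adjusted p = 0.079) and missed the threshold.

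After that chromosome 14 interval, the largest rises with Nat1 loss in 2i+LIF were smaller. A_30_P01019306 in chr11:119254413-119296960, strand F, read -3.41, -3.50 and -3.83 in wild-type and -2.46, -1.54 and -1.41 in Nat1-null 2i+LIF, 3.43-fold higher, and all 3 bright probes of the interval were called. A_30_P01019304, a strand F probe of chr1:183783306-183834531, was 3.27-fold higher with a limma adjusted p of 0.05, but its Nat1-null 2i+LIF arrays read -2.72, 0.19 and -2.39. Without the middle array the log2 difference went from 1.71 to 0.79.

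Some intervals were highest in Nat1-null LIF. In chr8:12535648-12544923, strand R, A_30_P01029524 read 2.02, 1.24 and 1.97 there, against -1.29, -1.90 and -1.48 in Nat1-null 2i+LIF. In wild type it read -1.55, -1.29 and -1.39 with LIF and -0.21, -0.21 and -0.15 with 2i+LIF. No array of another group reached the 3 Nat1-null LIF arrays. Nat1 loss raised it 8.90-fold in LIF, and 2i lowered it 9.85-fold in Nat1-null cells (log2 -3.30, SE 0.211, limma adjusted p = 4.3e-06) while raising it 2.33-fold in wild type. All 4 bright R probes of the interval fell at least 2-fold with 2i in Nat1-null cells. The Nat1-null 2i+LIF arrays and 1 of the 3 Nat1-null LIF arrays lie in slide row 2, and the part of the row was not tested.

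The same shape held in chr17:15368546-15377747, strand R, where A_30_P01032666 read 0.95, 1.00 and 0.69 in Nat1-null LIF and -2.57, -1.84 and -2.46 in Nat1-null 2i+LIF, an 8.99-fold fall (log2 -3.17, SE 0.170, limma adjusted p = 1.6e-06). Its wild-type values were -0.95 ± 0.0966 in LIF and -0.09 ± 0.0819 (SD, n = 3) in 2i+LIF. The overlapping intervals chr15:102100397-102105872 and chr15:102100964-102104552, strand F, gave the lowest interaction values. A_30_P01017712 of the first stood at -2.71 ± 0.0397 in wild-type LIF and -0.73 ± 0.0424 in wild-type 2i+LIF, and at 0.65 ± 0.297 and -2.11 ± 0.303 in Nat1-null cells without and with 2i. With 2i it thus rose 3.93-fold in wild type and fell 6.79-fold in Nat1-null cells. All 5 bright F probes of the 2 intervals were called in this way, with differences of 0.90 to 2.08 in wild type and -2.76 to -2.46 in Nat1-null cells.

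Other intervals were lowest in Nat1-null LIF. In chr8:67550064-67560987, strand R, the single probe A_30_P01033125 read 1.55, 1.67 and 1.63 in wild-type LIF and 1.67, 1.60 and 1.60 in wild-type 2i+LIF. Its Nat1-null values were -0.99, -0.82 and -1.30 with LIF, and 0.82, 0.73 and 0.59 with 2i+LIF. The wild-type groups overlapped, Nat1-null LIF was lowest, and Nat1-null 2i+LIF lay between. Nat1 loss lowered it 6.27-fold in LIF and 1.88-fold in 2i+LIF, and 2i raised it 3.36-fold in Nat1-null cells (log2 1.75, SE 0.113, limma adjusted p = 4.8e-06). A_30_P01021461 in chr2:119697845-119719245, strand F, was likewise lowest in Nat1-null LIF, at -3.55 ± 0.260 (SD, n = 3), and 3.30-fold higher in Nat1-null 2i+LIF. In chr16:9129538-9137898, strand F, A_30_P01031570 fell 5.76-fold with 2i in wild type, from 0.06 ± 0.0796 to -2.47 ± 0.189, and rose 2.99-fold with 2i in Nat1-null cells, from -3.27 ± 0.378 to -1.70 ± 0.147.

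The 2 largest rises with 2i in Nat1-null cells rested on uneven arrays. A_30_P01020717 in chr6:13801450-13853450, strand F, read -3.65, -3.35 and -3.19 in Nat1-null LIF and -1.67, -0.04 and -2.69 in Nat1-null 2i+LIF, and A_30_P01022026 in chr10:59382822-59383642, strand R, read -3.72, -3.67 and -3.73 and then -0.68, -1.84 and -2.91. In each the highest spot was marked as an outlier by the scanner software. Their log2 differences were 1.93 and 1.90, and became 1.22 and 1.34 without the array of that spot.

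The largest fall with Nat1 loss, in chr7:67111261-67120645, strand R, was also uneven. A_30_P01029835 read 2.29, 2.24 and 2.25 in wild-type LIF and 1.67, 1.65 and 1.64 in wild-type 2i+LIF, against -4.53, -3.65 and -0.73 in Nat1-null LIF and -1.92, -3.18 and -3.52 in Nat1-null 2i+LIF. The genotypes did not overlap in either medium. The falls were 37.5-fold (limma adjusted p = 0.00027) and 23.1-fold (adjusted p = 0.0016), and the -0.73 spot was an outlier by the scanner software. Overlapping intervals of the stretch chr7:67111261-67120697 held 6 members, all on strand R, of which 6, 6, 1 and 1 were detected in full in wild-type LIF, wild-type 2i+LIF, Nat1-null LIF and Nat1-null 2i+LIF. A_30_P01025181 in chr7:67119535-67120213 read -1.73, -1.63 and -1.86 in wild-type 2i+LIF and was not well above background in Nat1-null 2i+LIF, where it was at least 6.15-fold lower.

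Members found in 1 group and on no array of another show gains and losses that the tests on bright members leave out. For 2i in wild type, 78 members were detected on all 3 arrays of 2i+LIF and none of LIF, and 276 the reverse. For Nat1 loss in LIF the counts were 63 gained and 326 lost, for 2i in Nat1-null 6 and 148, and for Nat1 loss in 2i+LIF 5 and 543. Of the mRNA probes, 70 and 818, 56 and 991, 35 and 168, and 17 and 604 did so. These counts are out of 7302 members and 19946 mRNA probes. As a share of the class, the losses for 2i in wild type and Nat1 loss in LIF were no more frequent among members than among mRNA probes. The gains in these comparisons and the losses into Nat1-null 2i+LIF were more frequent among members. The counts use the same detection marks as the rule, and members lie nearer to background than mRNA probes. These shares were not matched for level, and the part of level in them was not tested. The losses into Nat1-null 2i+LIF fall on arrays where 65.0% to 79.8% of members were detected, a lower share than on most other arrays. An "at least" fold compares the bright group's mean with the lowest signal well above background on each array of the dim group, or the probe's own value where that is higher. On this measure 167 of the 326 members lost with Nat1 loss in LIF were at least 2-fold lower, and 59 of the 543 lost in 2i+LIF. The measure was not taken for mRNA probes.

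A_30_P01030135, the single probe of chr6:34548561-34612216, strand F, read -0.75, -0.81 and -0.66 in wild-type LIF and was not marked well above background on the 9 other arrays. It was at least 19.1-fold lower in wild-type 2i+LIF. A_30_P01018509 in chr2:94082835-94101939, strand R, and A_30_P01030648 in chr1:42689799-42749799, strand R, were lost as well, by at least 10.8-fold and 10.2-fold. These 3 members are high on the arrays where the summed fibroblast and neural lists are high, and the part of the marker levels was not tested.

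Of the members gained with 2i in wild type, A_30_P01021050 in chr12:72103832-72116875, strand R, was at least 8.90-fold higher. It read -1.79, -2.05 and -2.33 in wild-type 2i+LIF and also rose in Nat1-null cells, to -2.81, -3.19 and -2.15 in LIF. All 5 bright R probes of this interval were called higher with 2i in wild type, by 0.69 to 2.36. A_30_P01028073 in chr8:13200727-13207714, strand F, was at least 6.41-fold higher.

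With Nat1 loss in LIF, A_30_P01024114 in chr17:32075308-32075792, strand R, was not marked well above background in wild-type LIF and read -1.58, -1.66 and -1.60 in Nat1-null LIF, at least 12.1-fold higher. A_30_P01026924 in chr6:30127175-30128051, strand F, was at least 8.53-fold higher. Both were also detected in wild-type 2i+LIF, at -4.07 ± 0.334 and -3.57 ± 0.208 (SD, n = 3), below their level in Nat1-null LIF. A_30_P01020876 in chr1:15837503-15838648, strand F, at least 9.11-fold higher, read 0.18, -4.54 and -1.70, and the last spot was marked as an outlier.

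Lost with Nat1 loss in LIF were A_30_P01033149 in chr9:68349343-68411643, strand F, at least 53.5-fold lower, and A_30_P01018135 in chr17:12941161-12944859, which has no strand label, at least 21.4-fold lower. A_30_P01033149 read 0.79, 0.73 and 0.77 in wild-type LIF, -0.93, -0.93 and -1.18 in wild-type 2i+LIF, and -7.59, -6.45 and -6.41 in Nat1-null LIF. In Nat1-null 2i+LIF it read 0.00, an outlier spot, and then -6.66 and -6.78. The other 2 bright F probes of this interval did not follow it, with differences of 0.40 and 0.43 for Nat1 loss in LIF. The value thus belongs to a single probe of an interval of 16.

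In 2i+LIF, A_30_P01028729 in chr6:53808521-53817132, strand F, read -1.60, -1.50 and -1.92 in wild type and was at least 6.44-fold lower in Nat1-null cells. Its wild-type LIF values of -3.48, -3.23 and -3.27 lay below those of wild-type 2i+LIF. The members gained in this comparison were weaker or uneven. A_30_P01029850 in chr15:102920547-102933472, strand R, at least 13.1-fold higher, read 1.00, -3.94 and -0.92, with 2 outlier spots. A_30_P01027633 in chr11:99048975-99062425, strand F, at least 5.06-fold higher, read -0.95, -2.66 and -4.35, with 1 outlier spot. A_30_P01019008 in chr17:21177225-21187525, strand R, was at least 2.53-fold higher, at -3.84, -4.43 and -2.70.

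With 2i in Nat1-null cells, A_30_P01028865 and A_30_P01019152 in chr3:145313275-145315057, strand F, were detected in every group but Nat1-null LIF and were at least 3.18-fold and 3.12-fold higher in Nat1-null 2i+LIF. A_30_P01025883 in chr10:6480075-6603900, strand F, had the same pattern and was at least 3.31-fold higher. The 3 steepest losses each rested on 1 or 2 spots of Nat1-null LIF: A_30_P01019071 read -5.03, 0.89 and -1.15, A_30_P01022807 -4.11, -4.48 and 1.80, and A_30_P01020040 -5.09, -4.23 and 2.33. The spots at 0.89, 1.80 and 2.33 were outliers by the scanner software, and without them the group means were -3.09, -4.30 and -4.66. Outlier spots touched 210 of the 7302 members on some array, and 85 of the 4365 bright ones.

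The largest group of neighbouring members lost in Nat1-null cells lay on chromosome 12. It was picked out after its values were seen and is given without a test. The stretch chr12:110738120-110988678 of 251 kb held 77 probes, of which 48 were members, 30 on strand F and 18 on R, in 11 intervals that form 4 separate loci. Of the 48, wild-type cells had 47 detected in full with LIF and 34 with 2i+LIF, and Nat1-null cells 9 and 6. The median level of the 48 was -2.24, -2.30 and -2.22 on the wild-type LIF arrays and -3.95, -3.97 and -3.93 on the wild-type 2i+LIF arrays. It was -5.41, -5.54 and -5.92 in Nat1-null LIF and -5.87, -5.71 and -5.62 in Nat1-null 2i+LIF. The order of the groups was the same on every array of each, apart from the 2 Nat1-null groups, which overlapped.

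Single members of that stretch show the steps. A_30_P01032789 in chr12:110894095-110899517, strand F, read 1.15, 1.23 and 1.14 in wild-type LIF and -1.66, -1.37 and -1.70 in wild-type 2i+LIF. It was at least 6.90-fold below the latter in Nat1-null 2i+LIF, where it was not well above background. A_30_P01029814 in chr12:110909258-110913909, strand F, went from -0.25, -0.29 and -0.41 in wild-type LIF to at least 23.7-fold lower in Nat1-null LIF, but was detected on 2 of 3 Nat1-null 2i+LIF arrays, at -2.12 and -1.93, and its means in wild-type and Nat1-null 2i+LIF were -3.53 and -3.52. An R member of chr12:110896603-110940553 stayed level, with means of -3.04, -3.05, -3.08 and -2.98 in wild-type LIF, wild-type 2i+LIF, Nat1-null LIF and Nat1-null 2i+LIF. The fibroblast marker sum fell between wild-type LIF and wild-type 2i+LIF as well. It was 1.03 to 1.18 in wild-type 2i+LIF and 0.81 to 1.05 in Nat1-null 2i+LIF. Between these 2 groups Col1a1 went from -2.61 to -3.69 and Thy1 from -1.01 to -2.26, and Col1a2, Acta2 and Dcn were also lower. Col3a1 rose from -5.09 to -3.92 and Pdgfrb from -0.15 to 0.24, and Lum was higher too. The part of these markers in the losses was not tested.

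A smaller stretch, chr17:12941161-13033750, also chosen after its values were seen, had 13 members, of which 13, 6, 3 and 4 were detected in full in wild-type LIF, wild-type 2i+LIF, Nat1-null LIF and Nat1-null 2i+LIF. The 5 members of chr17:12941161-12944859 had median levels of -1.54, -4.94, -6.48 and -4.48 in that order. An R member of chr17:12990484-13018375 was level, at -2.97, -2.96, -2.86 and -2.73. On chromosome 4, from 146017200 to 146979325, 45 of 47 probes were members and 34 of them bright. There 19 of the 34 were at least 2-fold lower with Nat1 loss in 2i+LIF, with a median difference of -1.13, where 3.02% of all bright members were.

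On the X chromosome 283 of 577 probes were members and 156 of them bright, in 64 intervals. With Nat1 loss in LIF, 29 (18.6%) of them were at least 2-fold lower, where 3.56% of the autosomal bright members were. The 2-fold rises were 16.0% and 13.7%. With 2i in wild type 9.62% were lower against 2.49%. The 29 probes stand for 11 intervals in 9 separate loci. The 15 probes lower with 2i in wild type stand for 5 intervals in 4 loci, and 8 of the 15 lie in 1 locus, given below. Both shares thus rest on few loci. By interval, 11 of 64 on the X and 101 of 1721 on the autosomes held a lower probe with Nat1 loss in LIF. With 2i in wild type these were 5 of 64 and 71 of 1721. Over all chromosomes the share of probes that were members ran from 35.2% on chromosome 9 to 53.1% on chromosome 8.

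The steepest X-linked changes lay in 2 overlapping intervals, chr X from 135880775 to 135892277, strand R, with 9 members of which 8 were bright. The median level of the 9 was 0.46, 0.48 and 0.51 in wild-type LIF and -3.53, -3.06 and -3.16 in wild-type 2i+LIF. Nat1-null cells had -0.54, -1.43 and -0.58 with LIF, and -1.96, -1.88 and -1.91 with 2i+LIF. No group overlapped another. All 8 bright members were at least 2-fold lower with 2i in wild type (differences of -4.03 to -3.06), and with Nat1 loss in LIF; with Nat1 loss in 2i+LIF 7 of the 8 were at least 2-fold higher. Other X-linked falls with Nat1 loss in LIF were in chrX:165792277-165807952, strand F, with 5 of 5 bright members and a median of -1.37, and chrX:50087925-50101700, strand R, with 5 of 8. In chrX:47893703-47996700, strand R, 4 of 5 fell, and their mean level was -1.29 in wild-type LIF and, in Nat1-null cells, -2.48 with LIF and -1.40 with 2i+LIF.

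Windows of 1 Mb, read after the data were seen, give the places where most bright members went the same way. Probes of 1 locus are not separate cases, so the separate loci are given. From 62 to 63 Mb of chromosome 10, with 2 loci, 15 of 18 bright members rose at least 2-fold with Nat1 loss in LIF. The median of the 18 was 1.43, and 9 rose with 2i in wild type. Of all bright members, 13.8% and 9.14% rose at 2-fold in these comparisons. From 59 to 60 Mb of chromosome 1, with 1 locus, all 8 rose with Nat1 loss in LIF, by 1.16 to 1.62. From 54 to 55 Mb of chromosome 6, with 1 locus, 10 of 11 did. From 26 to 27 Mb of chromosome 17, with 3 loci, 10 of 14 did. In the last window 9 of the 14 then fell with 2i in Nat1-null cells. So did 10 of 18 from 15 to 16 Mb of chromosome 17, with 3 loci, where 2.75% of all bright members fell. From 67 to 68 Mb of chromosome 8, with 2 loci, 6 of 7 went the other way, falling with Nat1 loss in LIF and rising with 2i in Nat1-null cells.

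The brightest members stayed within 2-fold across the groups, but most were called higher with 2i in wild type. A_30_P01026458 in chr11:22681800-22707775, strand R, had means of 8.74 and 9.06 in wild-type cells without and with 2i, and of 8.77 and 8.96 in Nat1-null cells. A_30_P01026091 in chr6:116123643-116124550, strand F, stood at 8.13, 8.03, 8.07 and 8.10 and was not called in any comparison. The other 4 of the 6 brightest, A_30_P01021243 in chr17:48068261-48087905, A_30_P01030669 in chr7:108209996-108216032, A_30_P01031448 in chr14:78924115-78938125 and A_30_P01020276 in chr12:119825125-119850750, had means between 7.92 and 8.64. All of the 6 but A_30_P01026091 were called higher with 2i in wild type, by 0.27 to 0.56. The greatest difference among the 6 was that 0.56, for A_30_P01021243. A_30_P01021243 and A_30_P01030669 were also called higher with Nat1 loss in LIF, by 0.41 and 0.38. In chr14:78924115-78938125, the 2 bright F probes rose by 0.27 and 0.76 with 2i in wild type, and the 3 bright R probes rose by 1.14 to 1.50 with it and by 1.11 to 2.03 with Nat1 loss in LIF.

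The intervals with the most members were chr5:74487385-74497428, with 18 of 20 probes, chr10:94900849-94928059 with 17 of 20 and chr11:3538125-3554450 with 17 of 19. In the first, 9 of the 10 bright F probes were called higher with 2i in Nat1-null cells, by 0.32 to 1.32 over the 10. In the second, 5 of 5 bright R probes were called lower with Nat1 loss in LIF, 4 of them at least 2-fold. In the third no probe reached a 2-fold call in any of the 4 comparisons. Strong signal on both strands was found in chr12:73838608-73862621, with 8 of 10 probes, and chr17:39960567-39992817, with 9 of 9. None of the bright probes of either reached 2-fold. By the level of its dimmer strand chr5:74487385-74497428 also belongs with them.

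The edge of the detection rule can be read from probes next to it. A_30_P01023769 in chr5:121765763-121768660 was kept through its wild-type LIF values of -5.23, -5.07 and -4.85, and A_30_P01024633 in chr8:37590189-37590632 through -5.22, -5.29 and -4.83. The brightest probe left out, A_30_P01021639 in chr5:33773842-33942967, read -6.97, 0.88 and 0.87 in wild-type LIF, and A_30_P01020194 in chr16:40467818-40468474 read 0.24, -6.48 and 0.83 in Nat1-null 2i+LIF. The brightest probes left out are uneven by the rule itself, and both have outlier spots among their high values.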

How the data were processed

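The deposited scanner output gives spot brightness as linear intensity (processed, median and local background signals) from Agilent Feature Extraction 10.7.3.1, per the file headers. In the table the authors made from it, values are log2 of the processed signal, scaled to a 75th percentile of 0 on each array; recomputed from the scanner output they matched it at r = 1 on each array. The members, lists and rules were chosen with earlier results of these data known.

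limma 3.58.1 in R 4.3.3 fitted the 4 group means to the log2 values of all 12 arrays, over 33915 probes, with 5 contrasts, two-sided, adjusted by Benjamini-Hochberg. The fit was tested on simulated data. Named are (a) the 6 brightest members, (b) the 4 largest rises and falls per contrast among bright members called at 2-fold with groups apart, (c) the 3 largest "at least" folds each way per contrast among members found in full in 1 group and on no array of the other, (d) the intervals with most members and those bright on both strands, and (e) members at the edge of the rule. Probes on 1 chromosome were passed over. Runs, windows and the X chromosome were chosen after the data were seen.

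Spots marked as outliers stay in the log2 table and are named where they matter. Alternatives changed the values, background correction (normexp, offset 50), scaling, filter, arrays fitted, replicate block and arrays left out. Residuals of same-numbered arrays correlated at -0.0548 to 0.1919 in 18 pairs, above 0.1 in 1, so arrays were not taken as paired. Replicates may be technical: p-values then measure only how far these arrays differ, and their number limits precision. Tables used pandas 2.3.3 and numpy 2.4.6 in Python 3.11.15. How the intervals were annotated is not given in the sources used here.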

Additional observations from a re-analysis of the deposited data

Results flagged for a closer look

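For 8 members the difference made by 2i in wild type was not that in Nat1-null cells, by the test of the interaction (log2, Nat1-null minus wild type). Among those above 0, 3 probes of chr3:87757295-87774970, strand F, had values of 4.20 (A_30_P01018420), 3.96 (A_30_P01018307) and 3.88 (A_30_P01033229), and A_30_P01031570 in chr16:9129538-9137898 had 4.11. In the first interval the fall with 2i in wild type was far larger than in Nat1-null cells. In the other, 2i lowered the level in wild type and raised it in Nat1-null cells.

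Among those below 0, A_30_P01017712 in chr15:102100397-102105872 had -4.74, A_30_P01023361 in the overlapping chr15:102100964-102104552 had -4.69, and A_30_P01029524 and A_30_P01032587 in chr8:12535648-12544923 had -4.52 and -4.48. All 4 rose with 2i in wild type and fell with it in Nat1-null cells. The limma adjusted p of these 8 interaction values ran from 2.2e-07 (A_30_P01023361) to 5.9e-06 (A_30_P01032587). They were picked as the largest of 4365 bright members, and the interaction cannot be told apart from the slides.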

How the results depend on the processing

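Counts of bright members past 2-fold (higher and lower) moved by over 1.5 times under 3 alternatives. Normexp gave 225 and 69 for 2i in wild type, 27 and 66 for 2i in Nat1-null, 370 and 108 for Nat1 loss in LIF, 32 and 64 for Nat1 loss in 2i+LIF, and 64 and 313 for the interaction. No scaling gave 112 and 408 for 2i in wild type, 203 lower for 2i in Nat1-null, 167 and 67 for Nat1 loss in 2i+LIF, and 275 and 239 for the interaction. A filter on the mean gave 216 lower for 2i in wild type, 80 higher for 2i in Nat1-null, 331 lower for Nat1 loss in LIF, 251 lower for Nat1 loss in 2i+LIF and 185 higher for the interaction. The normexp and scaling causes were not tested; the filter admits 5121 members in place of 4365.

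Leaving out each array in turn gave 381 to 420 higher and 111 to 128 lower for 2i in wild type, 45 to 60 and 98 to 174 for 2i in Nat1-null, 580 to 630 and 164 to 182 for Nat1 loss in LIF, 74 to 103 and 118 to 139 for Nat1 loss in 2i+LIF, and 107 to 121 and 469 to 528 for the interaction. With the replicate number as a block the counts were 399 and 120, 52 and 118, 602 and 179, 80 and 132, and 111 and 496, so the block moved no count by 1.5 times. A random block for the slide was not run, since no group spans slides.

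The gap between the members' and the mRNA median was 0.321, 0.274 and -0.297 after quantile normalization for 2i in wild type, Nat1 loss in LIF and the interaction, and 0.133 for Nat1 loss in LIF after normexp. The rule kept 8642 probes with 2 of 3 arrays, 11512 with the scanner's weaker test of significance, and 7278 with outlier spots counted as not detected, a setting chosen after the data were seen. For the named members 815 of 832 values under the alternatives kept direction and call, 17 lost the call and none reversed; the lost calls belong to A_30_P01019304, A_30_P01020717 and A_30_P01022026. Signals near background limit the dim members, for which only bounds are given.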
